A study of Rattus norvegicus with 13 samples.

Results

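Immediate early and stress response genes were followed in rat kidney glomeruli obtained in different ways. The genes were Fos, Jun, Junb, Atf3, Egr1, Nfkbia, Ier3, Gadd45a, Gadd45b and Rhob, and every probe set of the array whose only platform symbol is one of these was taken. This gave 10 of the 10411 genes named on the array, with 13 of its 15923 probe sets, 3 for Jun, 2 for Fos and 1 for each other gene. All animals were untreated Lewis-Hsd rats aged 18 weeks on a regular diet. LCM20 (n = 4) and LCM800 (n = 5) were glomeruli cut from frozen sections by laser capture microdissection, with RNA put through 2 rounds of amplification, and only their titles tell them apart, since what the 20 stands for is not stated and the protocol of both names about 800 glomerular cross-sections of 10 µm. Sieved glomeruli (n = 4, titled iron) came from kidneys perfused with iron oxide, were isolated by sieve and magnet, and their RNA was not amplified; the artery of the other kidney was clamped meanwhile, and the protocol states that the sieved glomeruli were nearly pure under the microscope. Per the design text both methods were used on the 2 kidneys of the same rats, but no label ties a replicate number to an animal. The sample description speaks of embryos, and the extraction text also names anti-Thy1.1 rats, neither of which matches the other labels.

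Immediate early genes are transcribed within minutes of a stimulus from factors already present in the cell, with no need for new protein. Their products include the AP-1 factors, which are dimers of Fos and Jun proteins, the zinc finger factor Egr1, and feedback inhibitors such as IκBα, the product of Nfkbia, which holds the transcription factor NF-κB in the cytoplasm. The Gadd45 genes, Atf3 and Rhob also respond to DNA damage or other stress. In kidney and other organs these genes are known to be induced by ischaemia and by the handling of tissue, so their level in isolated glomeruli is of interest when isolation methods are compared.

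The values are array signals in intensity units, scaled by the authors to a common trimmed mean. Differences are given as mean log2(signal + 65.3) of one group minus another with the SE of the fit, where 65.3 is a pseudocount that makes changes of dim probe sets smaller than the ratio of their signals. Adjusted p values come from limma over 11106 probe sets and count as called under 0.05. Of the 13 probe sets 12 passed the filter on low values, and only Fos 1371283_at did not. Fewer cells of a type and less RNA per cell cannot be told apart in such samples; precision is set by how few arrays there were. Nothing states that replicates were separate animals beyond their titles, so p values measure the spread between these arrays.

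The arrays differed between and within groups in ways that bear on the values below. The β-actin control was higher at its 3′ than its 5′ end on every array. On the log2 scale this excess was 1.50 to 2.51 in LCM20, 2.05 to 4.67 in LCM800 and 0.53 to 0.58 in sieved arrays. For the GAPDH control it was −0.28 to 3.26 in LCM20, 0.83 to 2.24 in LCM800 and 0.36 to 0.67 in sieved arrays. By GAPDH, LCM20 arrays thus ran both below and above the sieved arrays. Summed signals of 13 proximal tubule markers were 21960.1 to 44090.2 in LCM20, 25789 to 54501 in LCM800 and 61079 to 125382 in sieved arrays. Those of 6 podocyte markers were 26399 to 42309, 29956 to 41318 and 15432 to 37102 in the same order of groups. Singly, against sieved arrays, 12 of the 13 proximal tubule markers fell in each microdissected group, and 1 rose in LCM800. The podocyte markers went both ways, as 3 of the 6 rose and 1 fell in LCM20, and 3 rose and 2 fell in LCM800. No marker was listed at 0. Sieved replicate 3 stood apart, with sums of 61079 for proximal tubule markers, against 105171 to 125382 in the other sieved arrays, and 37102 for podocyte markers, against 15432 to 20323. The part of tubule RNA and RNA integrity in the differences below was not tested. Amplification, perfusion with iron oxide, clamping and the way of isolation went with the group of arrays. Their parts in the differences from sieved glomeruli were not tested and cannot be told apart in this design.

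Against sieved glomeruli the 10 genes did not move as one. Atf3, Egr1 and 1 probe set of Jun rose in both microdissected groups, while Gadd45a, Rhob, Nfkbia and the other 2 probe sets of Jun fell in both. Ier3 and Junb fell in LCM800 and did not pass in LCM20, and Fos and Gadd45b passed in neither group. In LCM20 3 of the 12 tested probe sets rose and 5 fell, where 45.3% of all tested probe sets differed, 26.2% upwards and 19.2% downwards. In LCM800 3 rose and 7 fell, where 51.9% of all differed, 31.8% upwards and 20.1% downwards. The median difference of the 12 was −0.54 in LCM20 and −0.87 in LCM800, against 0.17 and 0.22 over all tested probe sets. The median size of the difference, whatever its sign, was 1.55 and 1.74, against 0.62 and 0.67. It was also larger between LCM20 and LCM800, at 0.47 against 0.28. Within groups the 12 varied more as well. Their median SD was 0.45 against 0.36 over all in LCM20, 0.56 against 0.39 in LCM800 and 0.36 against 0.24 in sieved arrays. In each of the 2 comparisons 7 of the 12 had sample ranges that did not overlap, as did 43.8% of all tested probe sets for LCM20 and 42.8% for LCM800. The same sieved arrays serve both comparisons, so the 2 sets of values are not independent.

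**Figure D1:**
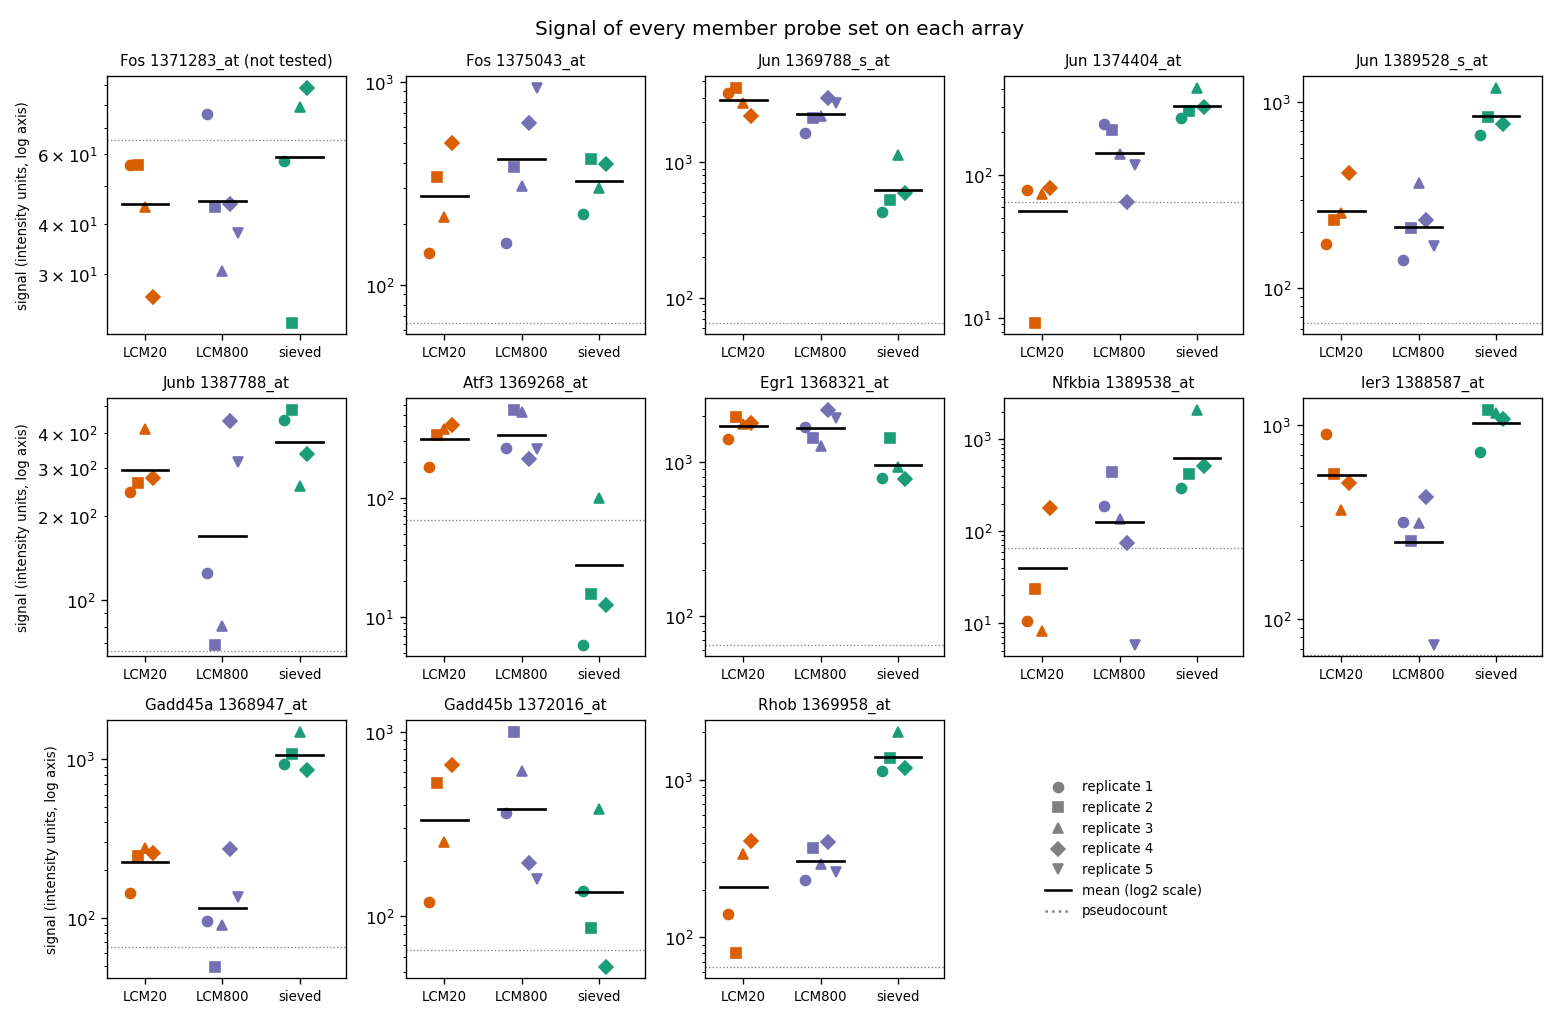
Signal in intensity units (log axis) of the 13 probe sets on each of the 13 arrays, with LCM20 left, LCM800 in the middle and sieved glomeruli right. Symbols mark replicate numbers, black bars the group mean on the log2 scale and dotted lines the pseudocount of 65.3; Atf3 and Jun 1369788_s_at lie wholly above the sieved arrays in both microdissected groups, and Gadd45a and Rhob wholly below.

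Among the AP-1 genes, Jun, which encodes the main transactivating partner of Fos, gave opposite results by probe set. Probe set 1369788_s_at had signals of 3263, 3563, 2766 and 2211 in LCM20, 1647, 2132, 2188, 2991 and 2749.8 in LCM800, and 429, 528, 1137 and 591 in sieved arrays. Every microdissected array was above every sieved array. The rise was 2.10 ± 0.28 in LCM20 (adjusted p = 3.51e-05) and 1.77 ± 0.27 in LCM800 (adjusted p = 7.16e-05). Probe set 1389528_s_at ran the other way, with 173, 234, 255 and 419 in LCM20, 142, 210.2, 367, 233 and 169 in LCM800, and 670.1, 839, 1199.8 and 766 in sieved arrays. Here every microdissected array was below every sieved array. It fell by 1.50 ± 0.27 in LCM20 (adjusted p = 0.000365) and by 1.71 ± 0.25 in LCM800 (adjusted p = 5.83e-05). Probe set 1374404_at, which shares its source sequence in the platform annotation with 1389528_s_at, had 78.5, 9.27, 73.6 and 80.8 in LCM20, 227, 206, 141, 65.1 and 117 in LCM800, and 250.3, 281, 409 and 300.4 in sieved arrays. Its microdissected arrays were all below the sieved ones, and 1 array of each microdissected group was under the pseudocount. It fell by 1.61 ± 0.29 in LCM20 (adjusted p = 0.00037) and by 0.84 ± 0.27 in LCM800 (adjusted p = 0.0179).

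The size of the change of Jun 1374404_at depended on the pseudocount, and its LCM800 call on single arrays. With no pseudocount its difference was −2.74 in LCM20 (adjusted p = 0.00259) and −1.14 in LCM800 (adjusted p = 0.119). With 4 times the pseudocount it was −0.83 and −0.48, both called. Without sieved replicate 3 the LCM800 call ended at −0.72 (adjusted p = 0.0613), and without LCM800 arrays 4 and 5 at −0.55 (adjusted p = 0.103). Without arrays 1 to 3 it was −1.27 (adjusted p = 0.00581), and its adjusted p ran from 0.00574 to 0.119 over all alternatives. A single level of Jun mRNA in microdissected relative to sieved glomeruli is therefore not given by these probe sets. Where on the transcript they lie was not used here.

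Fos, the partner of Jun in AP-1, did not pass in either comparison. Its brighter probe set 1375043_at had 144, 341, 217 and 499 in LCM20, 160.4, 382, 306, 626 and 935 in LCM800, and 223, 416, 301 and 392 in sieved arrays. The groups overlapped, and the microdissected arrays ran both lower and higher than the sieved ones. Its difference was −0.20 ± 0.39 in LCM20 (adjusted p = 0.708) and 0.30 ± 0.37 in LCM800 (adjusted p = 0.51). In LCM800, arrays 4 and 5 were above arrays 1 to 3, and without arrays 1 to 3 Fos passed at 1.09 (adjusted p = 0.0236). Without arrays 4 and 5 the difference was −0.22 (adjusted p = 0.585). Fos 1371283_at, left out by the filter, had 26.2 to 56.4 in LCM20, 30.5 to 75.7 in LCM800 and 22.6 to 88.3 in sieved arrays, and was under the pseudocount on 4, 4 and 2 arrays of these groups.

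Junb, a second Jun family gene whose product activates transcription less strongly than Jun at many AP-1 sites, had 244, 265, 413 and 276 in LCM20, 125, 69.1, 80.7, 440.0 and 313 in LCM800, and 446, 484, 258 and 337 in sieved arrays. All groups overlapped, and LCM800 held 3 low and 2 high arrays. The difference was −0.28 ± 0.37 in LCM20 (adjusted p = 0.55), and Junb fell by 0.90 ± 0.35 in LCM800 (adjusted p = 0.04). That call ended without any single one of sieved replicates 1, 2 and 4 or LCM800 replicates 1, 2 and 3, with adjusted p values of 0.0639 to 0.109. Without LCM800 arrays 1 to 3 the difference was 0.0012 (adjusted p = 0.998), and without arrays 4 and 5 it was −1.49 (adjusted p = 0.00016). The call also ended with no filter (adjusted p = 0.0549), with only these groups fitted (adjusted p = 0.0667) and with the cre spike-in as covariate (−0.62, adjusted p = 0.126), while array weights gave −1.46 (adjusted p = 3.67e-05).

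Atf3, a stress-induced member of the ATF/CREB family that can pair with Jun proteins, was dim on the sieved arrays. It had 181, 335, 380.2 and 406 in LCM20, 262, 548, 524, 211 and 256 in LCM800, and 5.91, 15.6, 99.8 and 12.7 in sieved arrays. Every microdissected array exceeded every sieved array, of which 3 were under the pseudocount. Atf3 rose by 2.03 ± 0.33 in LCM20 (adjusted p = 0.00017) and by 2.11 ± 0.31 in LCM800 (adjusted p = 5.81e-05). The size depends on the pseudocount, being 4.07 and 4.17 with none and 0.99 and 1.05 with 4 times as much, all called.

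Egr1, a zinc finger factor and a classical target of growth factor and MAP kinase signalling, rose by less. It had 1406, 1962, 1775 and 1794 in LCM20, 1685, 1441, 1283, 2195 and 1944 in LCM800, and 787, 1428, 934 and 779.6 in sieved arrays. The groups overlapped only through sieved replicate 2, which lay above 1 LCM20 and 1 LCM800 array. The rise was 0.81 ± 0.24 in LCM20 (adjusted p = 0.0121) and 0.78 ± 0.23 in LCM800 (adjusted p = 0.00973). The call held under all alternatives tried, with adjusted p values of 0.00524 to 0.0445 and 0.00416 to 0.0439.

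The promoter of Egr1 is shown because serum response factor is known to act on this gene through CArG boxes, which consist of a run of A and T between a pair of C and a pair of G. The sequence is from RefSeq (GRCr8, plus strand, chr18:26736828-26737127) and covers 250 bases before to 50 after the annotated start. Capitals mark the CArG boxes and TGACG, the core of the site of CREB and ATF proteins, read on either strand.
Egr1: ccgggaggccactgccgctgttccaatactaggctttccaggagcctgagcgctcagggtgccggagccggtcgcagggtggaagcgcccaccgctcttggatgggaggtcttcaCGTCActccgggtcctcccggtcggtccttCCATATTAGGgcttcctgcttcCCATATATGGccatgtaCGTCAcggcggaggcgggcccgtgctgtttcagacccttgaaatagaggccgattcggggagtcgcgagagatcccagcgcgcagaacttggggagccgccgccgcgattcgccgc
The window holds 2 CArG boxes, at bases 146 to 155 and 168 to 177, and 2 copies of TGACG on the minus strand. A CArG box was present in 1.64% of 33469 windows of this length and TGACG in 21.2%. Windows were found for 6 of the 10 genes, and Fos, Jun, Atf3 and Ier3 had none in the table. Among the 6, only Egr1 held a CArG box, 5 held TGACG, and none held TGACGTCA (1.83% of windows, and a form that includes TGACG) or TGANTCA (7.33%). CCAAT was in 5 of the 6 and in 37.5% of all windows. A match is only a run of letters and does not show that a factor binds there.

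Nfkbia, the gene of the NF-κB inhibitor IκBα, fell in both microdissected groups. It had 10.6, 23.3, 8.18 and 178 in LCM20, 187, 442, 137, 74.2 and 5.82 in LCM800, and 299, 420.5, 2102 and 509 in sieved arrays. All LCM20 arrays were below all sieved arrays, and 3 of them and 1 LCM800 array were under the pseudocount, whereas LCM800 replicate 2 lay within the sieved range, and sieved replicate 3 was far above the rest. Nfkbia fell by 2.71 ± 0.59 in LCM20 (adjusted p = 0.00168) and fell by 1.84 ± 0.56 in LCM800 (adjusted p = 0.0121). The LCM800 call ended without sieved replicate 3, at −1.29 (adjusted p = 0.0535), and without LCM800 arrays 4 and 5, at −1.21 (adjusted p = 0.0746), while without arrays 1 to 3 the difference was −2.78 (adjusted p = 0.00337). It also ended with array weights, at −0.90 (adjusted p = 0.0526). With no pseudocount the differences were −4.63 in LCM20 and −2.81 in LCM800, and with 4 times the pseudocount −1.56 and −1.16, all called.

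The promoter of Nfkbia is shown because the gene is itself a known target of NF-κB, the basis of its feedback. The sequence is from RefSeq (GRCr8, minus strand, chr6:78597023-78597322), in the same window, and capitals mark the only κB site found on either strand.
Nfkbia: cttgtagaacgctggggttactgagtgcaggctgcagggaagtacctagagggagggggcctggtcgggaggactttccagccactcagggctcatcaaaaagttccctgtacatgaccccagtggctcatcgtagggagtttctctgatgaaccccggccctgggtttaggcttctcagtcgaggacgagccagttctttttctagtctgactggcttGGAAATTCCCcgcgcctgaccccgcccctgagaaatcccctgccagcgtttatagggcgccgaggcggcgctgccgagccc
A κB site was found in 7.51% of all windows and in 1 of the 6 windows of these genes.

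Ier3, which encodes a short-lived protein that modulates cell survival and is another NF-κB target, had 899, 562, 366 and 505 in LCM20, 315, 251, 313, 425 and 73.5 in LCM800, and 723, 1202, 1151 and 1079 in sieved arrays. LCM800 was wholly below sieved glomeruli, while LCM20 replicate 1 lay within the sieved range. Ier3 fell by 1.79 ± 0.32 in LCM800 (adjusted p = 0.000319). In LCM20 its difference was −0.81 ± 0.34 (adjusted p = 0.0638), with adjusted p values of 0.0123 to 0.177 over the alternatives. Without LCM20 replicate 1 it passed at −1.02 (adjusted p = 0.0315), and without LCM800 replicate 5, which enters the shared spread, it passed at −0.81 (adjusted p = 0.0172).

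The 2 Gadd45 genes have products that act in growth arrest, DNA repair and stress kinase signalling. Gadd45a had 143, 245, 275 and 258 in LCM20, 95.6, 49.3, 89.9, 272 and 136 in LCM800, and 936, 1075, 1495 and 857 in sieved arrays. Every microdissected array was below every sieved array. Gadd45a fell by 1.96 ± 0.29 in LCM20 (adjusted p = 8.40e-05) and fell by 2.65 ± 0.28 in LCM800 (adjusted p = 2.96e-06). LCM800 replicate 2 was under the pseudocount, on which the size depends. With no pseudocount the differences were −2.25 and −3.28, and with 4 times as much −1.45 and −1.80, all called. Gadd45b had 119, 527, 251 and 659.6 in LCM20, 362, 997, 608, 194 and 159 in LCM800, and 137, 86.4, 381 and 53.3 in sieved arrays. Its groups overlapped because sieved replicate 3 was high and LCM20 replicate 1 low. The difference was 0.99 ± 0.52 in LCM20 (adjusted p = 0.134) and 1.15 ± 0.50 in LCM800 (adjusted p = 0.0618). Without sieved replicate 3 both passed, at 1.37 (adjusted p = 0.0455) and 1.54 (adjusted p = 0.0196). In LCM800 the call also came without replicate 4 or 5, at 1.35 (adjusted p = 0.0379) and 1.40 (adjusted p = 0.0267), and without LCM20 replicate 1 (adjusted p = 0.0485). Without LCM800 arrays 4 and 5 it was 1.75 (adjusted p = 0.00785), without arrays 1 to 3 0.27 (adjusted p = 0.702). Weighting the arrays gave calls in both groups, at 1.08 in LCM20 (adjusted p = 0.0315) and 1.74 in LCM800 (adjusted p = 0.000356).

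Rhob, a gene of a small GTPase that is induced by DNA damage and growth factors, had 141, 80.2, 337 and 409 in LCM20, 233, 369.6, 291, 404 and 260.0 in LCM800, and 1139, 1373, 2019.5 and 1182 in sieved arrays. The sieved arrays were wholly above both other groups. Rhob fell by 2.40 ± 0.33 in LCM20 (adjusted p = 3.58e-05) and by 1.97 ± 0.31 in LCM800 (adjusted p = 9.20e-05).

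**Figure D2:**
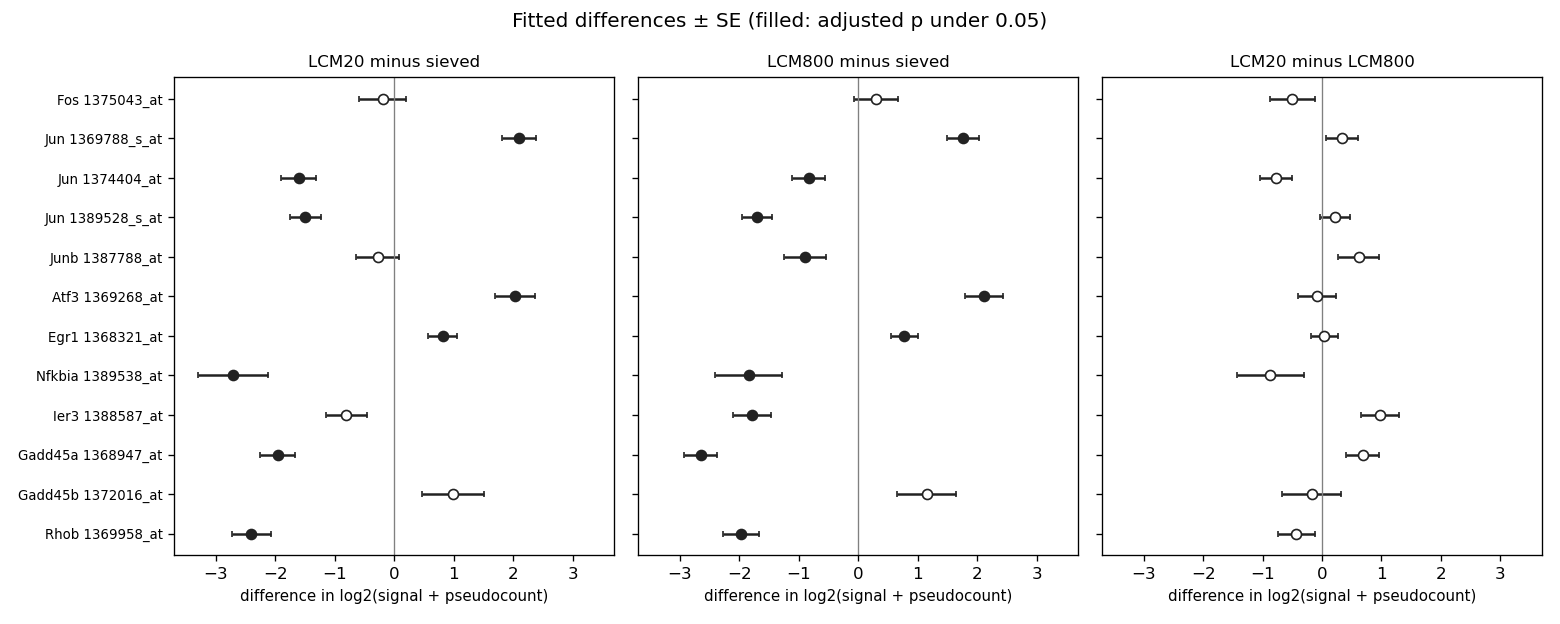
Fitted differences in log2(signal + pseudocount) of the 12 tested probe sets, with LCM20 minus sieved left, LCM800 minus sieved in the middle and LCM20 minus LCM800 right. Points are the estimates, bars the SE, and filled points had an adjusted p under 0.05; in the right panel no point is filled.

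LCM20 and LCM800, both amplified, were compared directly. None of the 12 probe sets passed limma's test, where 0.153% of all tested probe sets were called, 0.072% higher and 0.081% lower in LCM20. None had ranges that did not overlap, against 3.84% of all. At an unadjusted p under 0.05 there were 3 of the 12, against 17.6% of all tested probe sets, namely Ier3 at 0.98 (95% interval 0.30 to 1.66), Gadd45a at 0.68 (0.09 to 1.27) and Jun 1374404_at at −0.78 (−1.36 to −0.20). Egr1 and Atf3 had differences of 0.04 (−0.45 to 0.52) and −0.08 (−0.75 to 0.58), so a 2-fold difference lies outside both intervals. For Gadd45b the interval was −1.22 to 0.88 and for Nfkbia −2.06 to 0.32, which leaves larger differences undecided. Without LCM800 arrays 4 and 5, where 23.2% of all tested probe sets were called, 4 of the 12 were, with Junb at 1.21 (adjusted p = 0.00328), Gadd45a at 1.03 (adjusted p = 0.00759), Ier3 at 0.80 (adjusted p = 0.0386) and Jun 1374404_at at −1.06 (adjusted p = 0.0122). Without LCM800 replicate 4 alone, where 4.52% of all were called, Gadd45a was called at 0.91 (adjusted p = 0.0452). Summed signals of 10 loop, distal and collecting duct markers were 4770 to 11833 in LCM20 and 13479 to 20821 in LCM800, and those of 7 endothelial markers were 19653 to 25993 in LCM20 and 13852 to 17210 in LCM800. Neither pair of ranges overlapped, while those of podocyte, mesangial, proximal tubule, leukocyte and erythrocyte markers did. Singly, none of the 10 or of the 7 was called between LCM20 and LCM800. Their median differences were −0.48 for the 10 and 0.11 for the 7. The part of these markers in the values above was not tested.

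The genes also varied among arrays of 1 group, as the plot of deviations shows. In LCM800, arrays 4 and 5 both lay outside the range of arrays 1 to 3 for 9 of the 13 probe sets, as for 52.7% of all tested probe sets. Fos 1375043_at, Junb, Egr1, Gadd45a and Jun 1369788_s_at were higher in arrays 4 and 5, by 1.31, 1.50, 0.48, 0.88 and 0.52. Atf3, Nfkbia, Gadd45b and Jun 1374404_at were lower there, by differences of −0.72, −1.57, −1.48 and −0.72. The β-actin 3′ minus 5′ difference was 2.05 and 2.15 in arrays 5 and 4 and 3.25 to 4.67 in arrays 1 to 3. That of the GAPDH control was 0.83 and 2.24 in arrays 5 and 4 and 1.19 to 1.37 in arrays 1 to 3. By GAPDH, arrays 4 and 5 thus lay on opposite sides of arrays 1 to 3. The part of either control difference in the split of the genes was not tested. Among sieved arrays, replicate 3 was the highest for 8 of the 13 probe sets, as it was for 36.3% of all tested probe sets. It exceeded the mean of the other sieved arrays by 2.22 for Nfkbia, 1.54 for Gadd45b, 1.11 for Atf3 and 1.06 for Jun 1369788_s_at, whereas Junb was lowest there, at −0.58. In LCM20, replicate 4 was the highest array for Nfkbia, Gadd45b and Atf3 as well. It was the highest for 7 of the 13 probe sets, against 20.8% of all tested, so this was not particular to these genes. LCM800 replicate 2 was the highest for 3 of the 13, against 18% of all. The other arrays were under the pseudocount for Nfkbia in LCM20 and for Atf3 in sieved glomeruli. The array highest for Gadd45b was thus also highest for Nfkbia and Atf3 in each of the 3 groups.

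**Figure D3:**
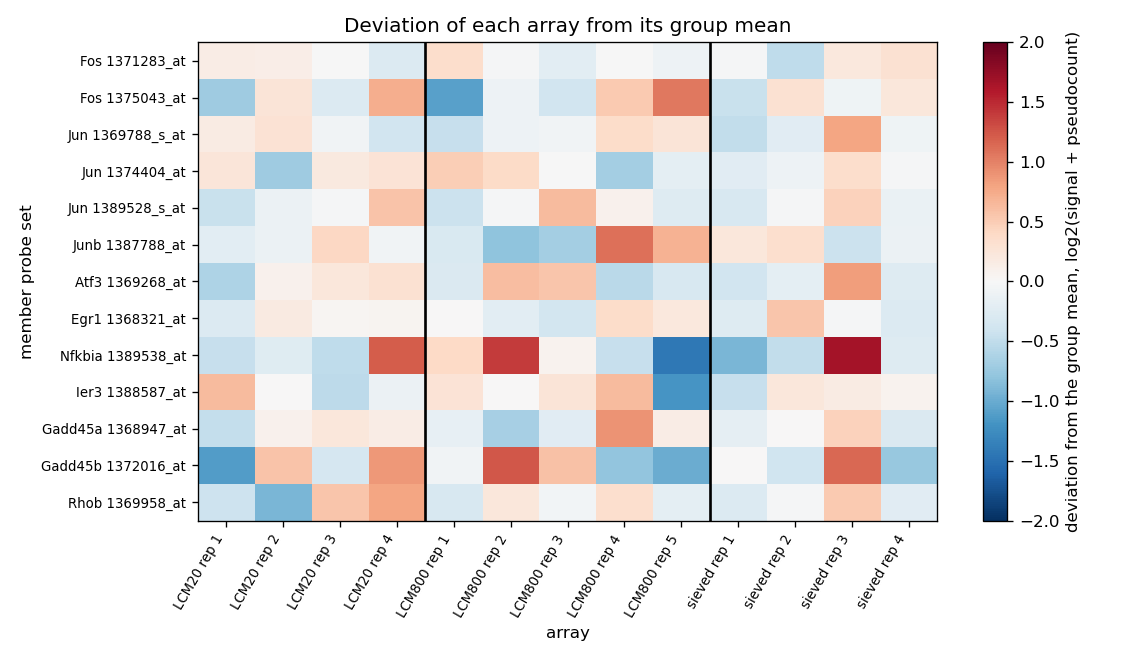
Deviation of each array from its group mean in log2(signal + pseudocount), red above and blue below, for the 13 probe sets (rows) on the 13 arrays (columns; LCM20, LCM800 and sieved from left to right). Atf3, Nfkbia and Gadd45b are red together in sieved replicate 3, LCM800 replicate 2 and LCM20 replicate 4.

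Sieved replicate 3 was also the highest sieved array for 10 of 15 tested NF-κB pathway genes, 21 of 35 other immediate early genes, 12 of 21 DNA damage and growth arrest genes, 5 of 10 AP-1 and ATF/CREB factors and 9 of 23 MAP kinase pathway genes, against 36.3% of all tested probe sets. It was the highest for 6 of 6 podocyte, 6 of 7 endothelial and 6 of 7 mesangial markers, and for none of 13 proximal tubule markers. The part of its cell makeup in the stress gene values was not tested.

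Related genes outside the 10, each by its brightest probe set, moved in both directions too. Among 35 other immediate early genes 12 rose and 5 fell in LCM20 and 15 rose and 4 fell in LCM800. For this and the lists below, 26.2% of all tested probe sets rose and 19.2% fell in LCM20, and 31.8% and 20.1% in LCM800. Medians in LCM20 and LCM800 were 0.49 and 0.55, against 0.17 and 0.22 over all. They were −0.11 and −0.23 for AP-1 and ATF/CREB factors and 0.22 and 0.26 for the NF-κB pathway. For DNA damage and growth arrest they were 0.40 and 0.03, and for the MAP kinase pathway −0.07 and 0.004. Ier2, a growth factor-induced immediate early gene, rose by 1.94 ± 0.38 in LCM20 (adjusted p = 0.000684) and by 1.97 ± 0.36 in LCM800 (adjusted p = 0.000328). Ccn2, connective tissue growth factor, rose by 2.15 ± 0.41 in LCM20 and by 1.50 ± 0.39 in LCM800, and Klf9, a Krüppel-like factor induced by glucocorticoids, by 1.48 ± 0.29 in LCM20 and by 2.04 ± 0.28 in LCM800. Zfp36, whose product tristetraprolin destabilises cytokine and immediate early mRNAs, fell by 1.80 ± 0.21 in LCM20 (adjusted p = 8.87e-06) and fell by 1.62 ± 0.20 in LCM800 (adjusted p = 9.93e-06). The clock gene Per1 fell by 1.59 in LCM20 and fell by 1.61 in LCM800. Its lowest signal in LCM20, 62.5, was under the pseudocount, on which the size of that fall depends.

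Of 10 AP-1 and ATF/CREB factors 1 rose and 2 fell in LCM20 and 2 rose and 2 fell in LCM800. Fosl1, another Fos family gene, rose by 0.59 ± 0.20 in LCM20 and by 0.68 ± 0.19 in LCM800. Maf, a basic leucine zipper factor, fell by 2.29 ± 0.28 in LCM20 and fell by 1.95 ± 0.27 in LCM800, and Creb1, the factor activated by cyclic AMP signalling, fell by 1.47 ± 0.31 in LCM20 and fell by 0.84 ± 0.29 in LCM800. The mean signal of Creb1 in LCM20, 64.8, and its lowest in LCM800, 62.0, were under the pseudocount, on which the size of its fall therefore depends. Creb5 rose by 0.70 in LCM800 and had a difference of 0.42 in LCM20 (adjusted p = 0.165).

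In the NF-κB pathway 4 of 15 genes rose and 2 fell in LCM20, and 5 rose and 2 fell in LCM800. Rela, the transactivating subunit that IκBα binds, rose by 1.25 ± 0.24 in LCM20 (adjusted p = 0.000661) and by 1.03 ± 0.23 in LCM800 (adjusted p = 0.00154), opposite to Nfkbia. Il1b, a cytokine and target, rose by 1.43 in LCM20 and by 1.18 in LCM800. Summed signals of 13 leukocyte markers were 6865 to 13013 in LCM20, 8015 to 10136 in LCM800 and 8967 to 13234 in sieved arrays. Singly, 10 of these markers were tested against sieved arrays. Of them 3 rose and 1 fell in LCM20, and 4 rose and 1 fell in LCM800. Their part in the result was not tested. Ikbkb, the kinase that marks IκBα for destruction, fell by 1.17 in LCM20 and fell by 0.82 in LCM800. The receptor gene Tnfrsf1a fell by 0.80 in LCM800, with a difference of −0.03 in LCM20 (adjusted p = 0.955), and the kinase gene Map3k7 fell by 0.66 in LCM20, with −0.31 in LCM800 (adjusted p = 0.189).

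Of 21 DNA damage and growth arrest genes 7 rose and 2 fell in LCM20, and 5 rose and 4 fell in LCM800. Gadd45g, the third Gadd45 gene, fell by 1.87 ± 0.30 in LCM20 (adjusted p = 0.000168) and by 1.97 ± 0.29 in LCM800 (adjusted p = 5.14e-05), as Gadd45a did. Gadd45gip1, whose product binds Gadd45 proteins, rose by 1.34 in LCM20 and by 1.32 in LCM800. Cdkn1a, the p53 target that arrests the cell cycle, rose by 0.81 in LCM20 and by 1.18 in LCM800, and Ddit3, a factor of the unfolded protein response, by 1.54 in LCM20 and by 0.90 in LCM800. Ppp1r15b, which directs a phosphatase to the translation factor eIF2α, fell by 1.10 ± 0.27 in LCM20 and fell by 2.02 ± 0.26 in LCM800.

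Of 23 MAP kinase pathway genes 3 rose and 2 fell in LCM20, and 6 rose and 1 fell in LCM800. Elk3 and Elk1, ternary complex factors that act on CArG boxes with serum response factor, rose by 1.55 and 0.84 in LCM20 and by 1.56 and 1.17 in LCM800, and the p38 kinase gene Mapk12 rose by 0.91 in LCM20 and by 1.07 in LCM800. Mknk2, a kinase downstream of ERK and p38, fell by 2.73 ± 0.35 in LCM20 and fell by 2.50 ± 0.33 in LCM800, and Mapkapk3 fell by 0.87 in LCM20 with −0.70 in LCM800 (adjusted p = 0.0669). The lowest signals of Mknk2, 27.6 in LCM20 and 41.8 in LCM800, were under the pseudocount, so the size of its fall depends on it.

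**Figure D4:**
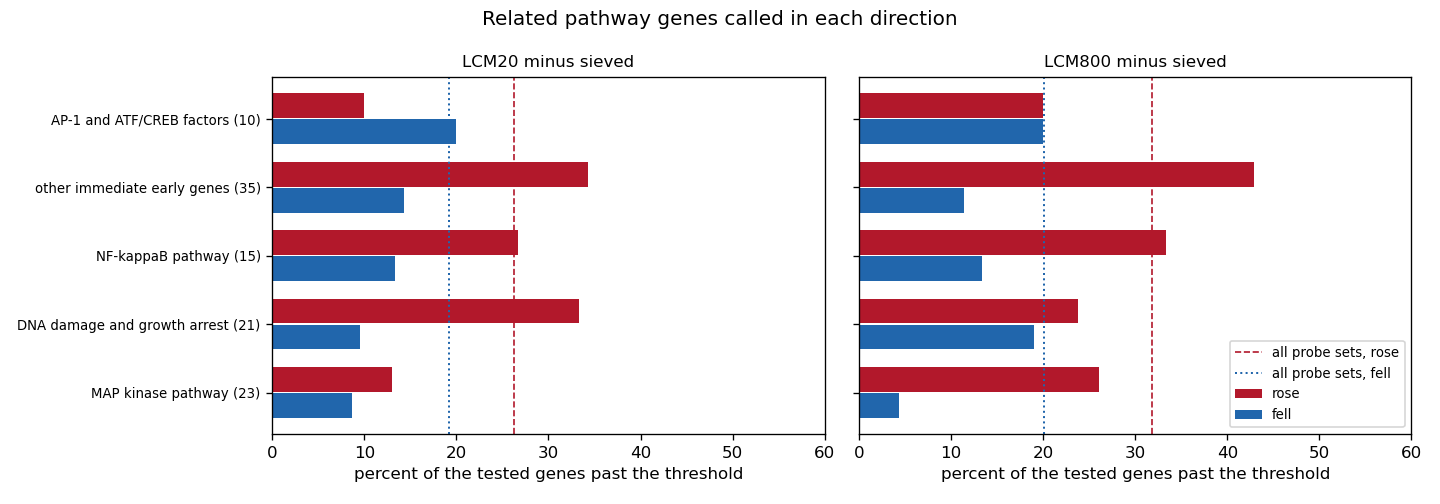
Percent of the tested genes of each related list that rose (red) or fell (blue), with LCM20 minus sieved left and LCM800 minus sieved right and the number of tested genes in brackets. Dashed red and dotted blue lines give the same shares over all 11106 probe sets, which were 26.2% and 19.2% for LCM20 and 31.8% and 20.1% for LCM800.

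Genes with the most similar pattern were sought for 3 members by Pearson's r of log2 values over the 13 arrays, which share their group structure and scaling. For Gadd45a they were Laptm4a (r = 0.97), Eif4a1 (0.96) and Atp5pb (0.96), all dimmer in microdissected glomeruli, with mean signals for Laptm4a of 1587.7 in LCM20, 951 in LCM800 and 6950.3 in sieved arrays. For Egr1 they were Uri1 (r = 0.89), Gtf2e2 (0.89) and Tomm40l (0.88), and for Fos 1375043_at Rnf14 (r = 0.80), Prkra (0.78) and Atp6v1a (0.74).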

How the data were processed

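RNA from 13 glomerular samples had been hybridised to one-colour Affymetrix Rat 230A arrays, labelled from 6 µg of RNA per the labels' protocols. The deposited values are linear array signals (intensity), for which the submitters' processing notes name MAS5. Their means after 2% at each end were left out lie near 500.1 on every array, so no further normalization was applied. No detection calls, probe positions or genome build were used. From these, log2(signal + pseudocount) was computed, with the 20th percentile of all signals as pseudocount. The 57 control probe sets and the lowest 30% by mean log2 were left out. Platform symbols gave 12783 probe sets with 1 symbol, 312 with several and 2771 with none, and 12748 were updated through the gene ID. The 3 groups were fitted together with limma 3.58.1 in R 4.3.3 (intensity trend, no covariate), with Benjamini-Hochberg adjustment over 11106 probe sets. The code was tested on simulated data. Every member probe set is named. From each related list the 2 largest rises and 2 largest falls past the test against sieved are named. One further list is not reported here. The members and lists were chosen with earlier results of these data known. Alternatives covered normalization, pseudocount, filter, variance model, array weights, replicate block, groups fitted and each array left out. Pairing by replicate number was not seen, though positive for replicate 1 in every pair of groups: correlations of deviations between same-numbered arrays ran from −0.24 to 0.23.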

Additional observations from a re-analysis of the deposited data

Results flagged for a closer look

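Of 39 sets of 4 or 5 arrays, 1 for each probe set and group, 3 held an array far from the rest by the gap between it and its neighbour relative to the whole range, and chance gives about 1 in 20. Jun 1374404_at had a signal of 9.27 in LCM20 replicate 2, against 73.6 to 80.8 in the other LCM20 arrays. Nfkbia had 178 in LCM20 replicate 4, against 8.18 to 23.3 in the others, which lie under the pseudocount. Atf3 had 99.8 in sieved replicate 3, against 5.91 to 15.6 in the other sieved arrays.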

How the results depend on the processing

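Under 26 alternatives, 3 of them chosen after the arrays had been seen (without LCM800 arrays 1 to 3, without LCM800 arrays 4 and 5, and the cre spike-in signal as a covariate), the 12 tested probe sets gave 912 values over 3 comparisons. Of these 855 kept direction and side of the threshold, 21 newly passed, 16 no longer passed and 20 changed sign. Many of the values could not change direction. Another filter, no intensity trend, fitting only the groups compared or leaving out an array of the third group all keep the difference itself as it was. When the dimmest 60% were removed, fewer probe sets were tested, 6346 of all and only 4 of these genes' probe sets. Those 4 were Egr1, Ier3, Rhob and 1 probe set of Jun. Against sieved, the calls in LCM20 were 3260 of all (51.4%) and 3 of the 4, without Ier3. The calls in LCM800 were 3503 of all (55.2%) and each of the 4. The other probe sets of these genes were not tested under this filter. Leaving out each array in turn gave 4143 to 5176 calls in LCM20 against sieved, or 37.3% to 46.6% of all tested probe sets. Of the 12 probe sets 8 to 9 were called there. In LCM800 against sieved there were 4941 to 5836 calls, or 44.5% to 52.5%, and 9 to 11 of the 12. For LCM20 against LCM800, with 17 calls in the main analysis, there were 10 with no pseudocount, 10 with no filter and 859 with array weights. There were 0 with the replicate block, 0 with only these groups fitted and 0 with the spike-in covariate. Without LCM800 arrays 4 and 5 there were 2581 (23.2% of all), with 4 of the 12 probe sets among them. Leaving out each array gave 0 to 502 calls, at most 4.52% of all, and 0 to 1 of the 12 probe sets. With the replicate block Gadd45b passed in LCM800 at 1.40 (adjusted p = 0.0276), Jun 1374404_at did not at −0.79 (adjusted p = 0.0508), and Ier3 passed in LCM20 at −0.81 (adjusted p = 0.0327). Replicate 5 exists only in LCM800, so its block term takes up that array. The LCM800 differences from sieved with the block are therefore the same as without LCM800 replicate 5, and are no separate check of size. The sign changes were all of uncalled values but for Junb in LCM800 against sieved, 0.0012 without arrays 1 to 3. Fos turned to −0.22 in LCM800 without arrays 4 and 5, and ran from −0.44 to 0.040 in LCM20 against sieved with each array left out. In LCM20 against LCM800 the leave-one-array-out ranges were −0.22 to 0.12 for Atf3, −0.058 to 0.13 for Egr1 and −0.46 to 0.20 for Gadd45b. There Egr1 was −0.031 with quantile normalization and −0.082 with the covariate, Atf3 0.014 with equal medians, and Fos 0.027 without arrays 4 and 5. Without arrays 1 to 3 Junb was −0.28, Atf3 0.35, Egr1 −0.25, Nfkbia 0.072 and Gadd45b 0.72. The causes were not tested.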
